A study of Mus musculus with 6 samples.

Results

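The Wnt ligands, their Frizzled receptors and the secreted Sfrp and Dkk antagonists were described in left ventricular myocardium of mice 9 days after transverse aortic constriction (TAC), surgery in which a narrowed aortic arch puts the left ventricle under pressure overload. The members were all protein-coding genes of the deposited count table whose symbol is that of a numbered Wnt, Fzd, Sfrp or Dkk gene, which gave 37 of 47729 genes: 19 ligands, 10 receptors, 4 Sfrp genes and 4 Dkk genes. Sfrp3 carries the symbol Frzb and therefore falls outside this rule; it is described with the other pathway genes. The comparison was of 3 libraries from mice labelled as the Treg group with 3 libraries from mice labelled as the control group, and both groups had undergone TAC. The series title describes the Treg cells as regulatory T cells that were CD28-deprived, induced in culture and given systemically. The sources used here do not give strain, age, genotype, cell dose, the time of transfer or what the control mice received, and no unoperated hearts were analysed here. Whether each library stands for a separate mouse is not stated in the labels, so p-values rest on library-to-library spread alone.

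Wnt proteins are lipid-modified secreted glycoproteins that bind the cysteine-rich domain of Frizzled receptors at the cell surface. With the co-receptors Lrp5 and Lrp6 they stabilise beta-catenin, which acts with TCF/LEF factors in the nucleus; with Ror or Ryk receptors, ligands such as Wnt5a and Wnt11 act on cell polarity and calcium without it. Sfrp proteins carry a Frizzled-like domain and bind the ligands, whereas Dkk1, Dkk2 and Dkk4 bind Lrp5 and Lrp6. In the adult heart this pathway is known for low activity at rest and for re-expression of several members in fibroblasts after injury or overload.

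Library totals lay between 28937253 and 29979080 counts. Control replicate 3 stood apart: over all genes tested its log2 CPM (counts scaled to a common library total, with TMM factors) correlated with the other 5 libraries at 0.947 to 0.964, against 0.974 to 0.993 among those 5. The ventricular light chain Myl2 was at 2176 CPM or more in every library, while the atrial light chain Myl7 was at 37.7 CPM in Treg replicate 3 and at 0.0330 to 0.216 CPM elsewhere. The summed level of the 5 atrial markers was 127 CPM in that library, against 9.48 to 12.2 CPM in the other 5. These values describe whole tissue, in which fewer cells of a type and less RNA per cell cannot be told apart.

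Promoter sequence is shown for 3 members. Wnt9a is shown because its groups did not overlap, Fzd1 for the same reason and because its window holds a TCF/LEF core, and Wnt11 as an example of a tested ligand with a window that holds that core. Wnt5b, which also has such a window (1 of its 3), is not shown. Nor is Dkk1, a member too low to test, whose window holds 2 cores. Each run is the 250 bases before the RefSeq start on GRCm38.p6, read 5′ to 3′ on the gene's strand, with the TCF/LEF core CTTTGA, searched on both strands, in capitals. The Wnt9a window is chr11:59306680-59306929 on the plus strand, the Fzd1 window chr5:4758217-4758466 on the minus strand, and the Wnt11 window shown chr7:98834862-98835111 on the plus strand.
Wnt9a: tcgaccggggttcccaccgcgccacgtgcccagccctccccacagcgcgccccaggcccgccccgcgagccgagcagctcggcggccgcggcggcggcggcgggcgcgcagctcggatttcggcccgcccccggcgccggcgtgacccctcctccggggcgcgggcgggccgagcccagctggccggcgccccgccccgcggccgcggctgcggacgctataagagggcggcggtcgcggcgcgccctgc
Fzd1: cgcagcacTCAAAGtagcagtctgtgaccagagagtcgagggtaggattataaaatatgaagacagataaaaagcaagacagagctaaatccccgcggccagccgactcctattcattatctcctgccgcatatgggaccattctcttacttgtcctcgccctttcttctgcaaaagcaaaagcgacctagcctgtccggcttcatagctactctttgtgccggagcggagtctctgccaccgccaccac
Wnt11: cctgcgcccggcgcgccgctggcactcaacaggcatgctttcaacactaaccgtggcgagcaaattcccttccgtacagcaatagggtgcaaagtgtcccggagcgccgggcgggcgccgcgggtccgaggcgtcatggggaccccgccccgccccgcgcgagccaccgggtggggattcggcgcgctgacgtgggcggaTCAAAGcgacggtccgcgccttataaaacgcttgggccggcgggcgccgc
In Fzd1 and Wnt11 the core lies on the opposite strand, with its first base in reading direction at 242 and 50 bases before the start. The Wnt9a window holds 48 CpG pairs, the Fzd1 window 12 and the Wnt11 window shown 37. A second Wnt11 window in the table, chr7:98838595-98838844, holds 16 CpG pairs and no core. RefSeq windows were on hand for 25 members (28 windows), of which 4 windows or 14.3% held the core; of all 32851 windows of this length 13.8% held it. The median number of CpG pairs was 22 in the members' windows and 6 in all windows. A match is a description of these letters and not a site of binding. The RefSeq table held no entry for Wnt5a, Fzd3 or Sfrp4.

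Of the 37 members, 23 had enough counts to be tested: 8 ligands, 9 receptors, all 4 Sfrp genes and 2 Dkk genes. The other 14 were at 13 counts or fewer in every library, and 5 of them, Wnt3a, Wnt7a, Wnt8a, Wnt10a and Dkk4, were at 0 in all 6. A count of 0 allows up to 3 counts, or 0.0942 to 0.108 CPM per library, and such limits cover counting error only. Wnt4, at 1 to 13 counts, and Wnt6, at 1 to 8, were above 0 in every library. Wnt1, the founding member of the family, was at 3, 0 and 3 counts in the Treg libraries and at 0, 0 and 7 in the control libraries. Dkk1, the best studied blocker of Lrp6, was at 0 or 1 count throughout.

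With all 6 libraries, none of the 23 members passed. With edgeR's quasi-likelihood test and Benjamini-Hochberg adjustment over all 17365 genes tested, adjusted p-values under 0.05 were found for 0 members and for 0% of all genes. The smallest adjusted p among the members was 0.225. At an unadjusted p under 0.05 there were 4 members, Wnt5a and Sfrp4 higher and Fzd3 and Wnt9a lower in the Treg libraries. That is 17.4% of the members, where 16.5% of all genes tested lay under the same value (8.23% higher and 8.31% lower), so the share of members is near the background. The groups did not overlap at 4 members or 17.4%, against 25.4% of all genes. The median log2 fold change of the members was −0.08 and that of all genes −0.02, and the median size of the change was 0.44 and 0.25. The members' median size includes Sfrp4, Sfrp5, Wnt2, Wnt10b and Dkk2, at 32 counts or fewer in every library. Their SEs were 0.36 to 0.69, and the median sizes were not compared at like counts. An adjusted p above the threshold does not show that a level was the same in both groups.

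**Figure D1:**
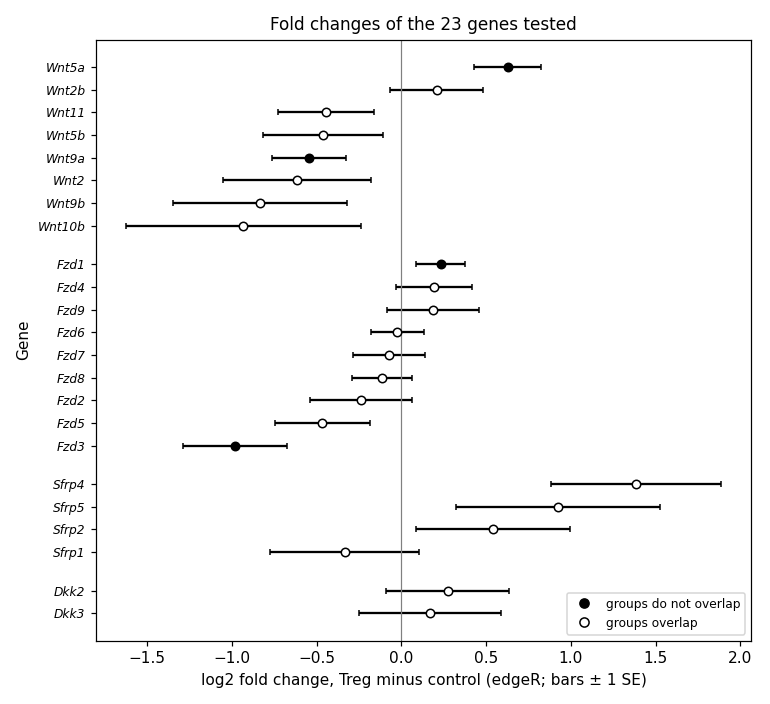
Log2 fold changes (Treg minus control, edgeR) of the 23 members tested, by class from top to bottom: Wnt ligands, Frizzled receptors, Sfrp and Dkk genes. Points are fitted values and bars 1 SE; filled points are the 4 genes whose groups did not overlap (Wnt5a and Fzd1 above 0, Wnt9a and Fzd3 below 0), and the values run from −0.98 for Fzd3 to 1.38 for Sfrp4.

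Among the ligands, Wnt5a, which signals mainly without beta-catenin, was the one whose 3 Treg libraries all lay above every control library. It stood at 8.24, 8.58 and 6.53 CPM in the Treg libraries and at 5.61, 5.39 and 4.11 CPM in the control libraries. The gene (chromosome 14, 28504750 to 28527448, GRCm38) averaged 7.79 ± 1.10 CPM in Treg hearts and 5.04 ± 0.815 CPM in control hearts (SD, n = 3 each). Its log2 fold change was 0.63 ± 0.20 (SE), with an edgeR adjusted p of 0.226. Over the 6 omissions of a single library it lay between 0.50 and 0.74.

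Wnt9a, a ligand known from joint and heart valve development, had the opposite order. Its levels were 6.63, 6.60 and 6.03 CPM in the Treg libraries, against 8.81, 7.15 and 12.2 CPM in the control libraries. The Treg values lay close together and below all controls, and control replicate 3 was the highest. The gene (chromosome 11, 59306928 to 59333552) averaged 6.42 ± 0.338 CPM in Treg hearts and 9.37 ± 2.55 CPM in control hearts (SD, n = 3 each), a log2 fold change of −0.55 ± 0.22 (SE; edgeR adjusted p = 0.285). Without control replicate 3 the log2 fold change was −0.31.

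Wnt5b, the close relative of Wnt5a, was at 3.20, 3.75 and 3.45 CPM in the Treg libraries and at 5.69, 6.29 and 2.36 CPM in the control libraries. Control replicates 1 and 2 lay above all Treg libraries and control replicate 3 below them. The log2 fold change was −0.46 ± 0.35 (SE; edgeR adjusted p = 0.52), and −0.79 without control replicate 3 (edgeR adjusted p = 0.0672; DESeq2 adjusted p = 0.0138 in that fit, added after the data were seen). Without control replicate 2 it was −0.22. Fbxl14, a ubiquitin ligase subunit gene, lies within the span of Wnt5b on the other strand at 368 to 496 counts. The sources used here do not say whether reads were counted by strand.

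Wnt11, a ligand of cardiac development, was at 2.64, 3.86 and 3.05 CPM in the Treg libraries and at 3.33, 3.67 and 5.96 CPM in the control libraries, where control replicate 3 was the highest. Its log2 fold change was −0.44 ± 0.28 (SE; edgeR adjusted p = 0.449), and −0.14 without that library. Wnt9b, known as an inducer of kidney tubules, was at 0.758, 1.84 and 2.198 CPM in the Treg libraries and at 4.84, 1.95 and 1.78 CPM in the control libraries. Control replicate 1 alone was high, and the log2 fold change of −0.83 became −0.21 without it. The remaining ligands were low: Wnt2b at 1.38 to 1.73 CPM in Treg and 0.927 to 1.58 CPM in control hearts, Wnt2 at 0.297 to 0.505 and 0.331 to 0.943 CPM, and Wnt10b at 0.180 to 0.462 and 0.165 to 1.08 CPM. Their groups overlapped.

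**Figure D2:**
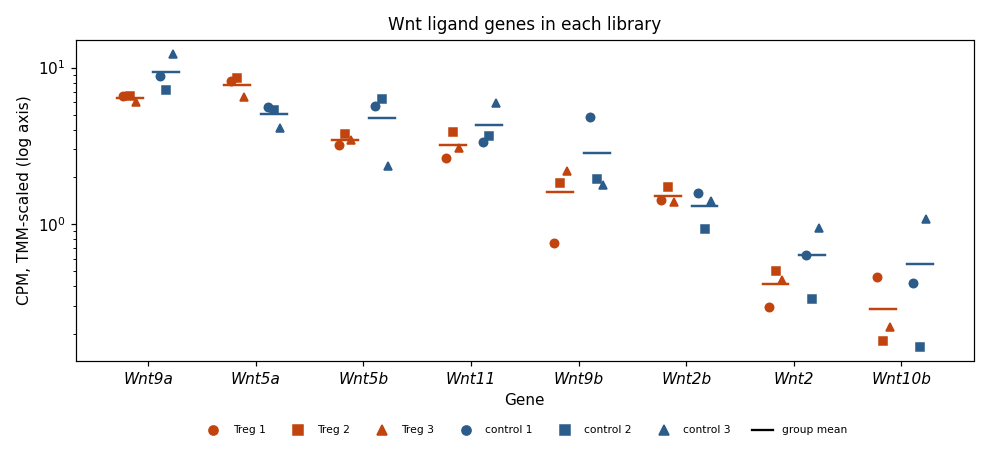
CPM on a log axis for the 8 Wnt ligand genes tested, in the 3 Treg libraries (left of each pair) and the 3 control libraries, ordered by mean level. Symbols mark replicates and bars group means; the groups are apart for Wnt9a and Wnt5a, and control replicate 3 is the highest library for Wnt9a, Wnt11, Wnt2 and Wnt10b.

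Levels of different genes were compared as CPM per kilobase of merged exons. Summed on that scale, the 19 ligands came to 5.74, 6.72 and 6.03 in the Treg libraries and to 8.25, 7.13 and 8.31 in the control libraries. Every Treg library lay below every control. The sum rests on few genes: Wnt9a made up 31.4% in Treg and 35.4% in control hearts, Wnt5b 21.2% and 23.3%, and Wnt11 12.4% and 13.2% (means of 3 libraries). Wnt5a made up 16.2% of it in Treg hearts and 8.23% in control hearts. The sum is given as a description, with no test.

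Fzd4, the receptor for Norrin and several Wnts in blood vessels, was the most abundant receptor per length. It held 42.3% of the summed Frizzled level per kilobase in Treg and 38.3% in control hearts. Its levels were 88.0, 85.8 and 67.7 CPM in the Treg libraries and 67.5, 51.6 and 92.3 CPM in the control libraries, and control replicate 3 was the highest of all 6. The log2 fold change was 0.19 ± 0.22 (SE; edgeR adjusted p = 0.67). Without control replicate 3 it was 0.43, and without control replicate 2 it was 0.01. The 9 endothelial markers summed to 1015 to 1266 CPM in Treg hearts and to 927 to 1832 CPM in control hearts, with the highest sum in control replicate 3. Of them, Fabp4 was at 1005 CPM in that library and at 360 to 490 CPM elsewhere. Pecam1, Egfl7 and Esam were also highest there, whereas Cdh5, Kdr, Tie1, Tek and Emcn were not. The part of these markers in the Fzd4 values was not tested.

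Fzd3, which guides axons and orients cells in planar polarity, was the scarcest receptor tested per kilobase in both groups. In control hearts its mean of 2.13 CPM lay above that of Fzd9, at 1.77 CPM. Fzd3 had the lowest fold change of the members. It stood at 0.890, 0.829 and 1.51 CPM in the Treg libraries (23 to 48 counts), against 1.86, 1.95 and 2.59 CPM in the control libraries (53 to 77 counts). All Treg libraries lay below all controls. The gene (chromosome 14, 65192449 to 65262463) had a log2 fold change of −0.98 ± 0.31 (SE; edgeR adjusted p = 0.225). It lay between −1.31 and −0.82 over the 6 omissions.

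The related receptors Fzd1, Fzd2 and Fzd7 differed in which libraries were high. Fzd1 was at 19.3, 17.2 and 22.8 CPM in the Treg libraries and at 17.2, 16.9 and 16.5 CPM in the control libraries, so that the groups touched without overlapping (17.165 in Treg replicate 2 against 17.160 in control replicate 1). Its log2 fold change was 0.23 ± 0.14 (SE; edgeR adjusted p = 0.438), and 0.12 without Treg replicate 3. Fzd2 was at 9.73, 8.22 and 12.8 CPM in the Treg libraries and at 14.5, 14.6 and 7.27 CPM in the control libraries. Control replicate 3 was the lowest and the other 2 controls the highest. Fzd2 had a log2 fold change of −0.24, and −0.50 without control replicate 3 (edgeR adjusted p = 0.694 and 0.209); without control replicate 1 it was −0.08. Fzd7 was at 10.6 to 10.8 CPM in Treg hearts and at 7.91 to 13.6 CPM in control hearts, a log2 fold change of −0.08.

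Fzd6, the polarity receptor most like Fzd3, was at 17.9 to 21.7 CPM in Treg and 17.8 to 23.9 CPM in control hearts, a log2 fold change of −0.02. The close pair Fzd5 and Fzd8 stood at 3.79 to 4.77 and 3.86 to 4.80 CPM in Treg hearts, against 3.90 to 8.15 and 4.38 to 4.84 CPM in control hearts. Fzd5 had a log2 fold change of −0.47 (edgeR adjusted p = 0.426), which was −0.18 without control replicate 3. Fzd9 was at 1.55 to 2.58 CPM in Treg and 1.49 to 2.07 CPM in control hearts. Summed per kilobase, the receptors came to 28.3 ± 0.671 in Treg and 27.1 ± 2.83 in control hearts (SD, n = 3 each), with overlapping groups.

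**Figure D3:**
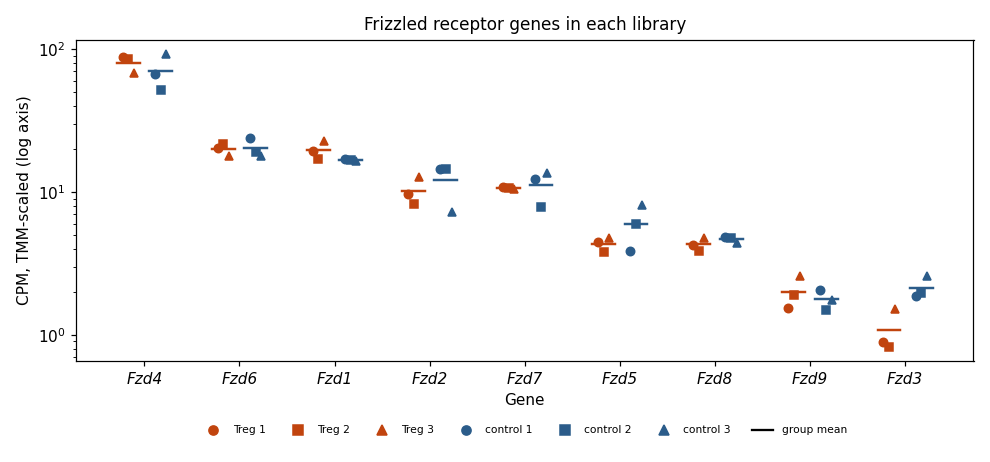
CPM on a log axis for the 9 Frizzled genes tested, in the 3 Treg libraries (left of each pair) and the 3 control libraries, ordered by mean level. Symbols mark replicates and bars group means; Fzd4 is the highest at 51.6 to 92.3 CPM, and the 3 Treg values of Fzd3 lie below its 3 control values.

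Sfrp1, which binds Wnts and is made by fibroblasts, had the highest mean level per kilobase of the 8 Sfrp and Dkk genes in each group, at 13.1 in Treg and 16.5 in control hearts. Frzb (Sfrp3), which is not among the 8, was at 13.8 in Treg and 15.6 in control hearts on the same scale. Sfrp1 stood at 56.7, 46.6 and 67.9 CPM in the Treg libraries and at 91.9, 97.7 and 26.2 CPM in the control libraries. Control replicates 1 and 2 lay above all Treg libraries, and control replicate 3 lay below them. The log2 fold change was −0.33 ± 0.44 (SE; edgeR adjusted p = 0.711). Without control replicate 3 it was −0.73 with an edgeR adjusted p of 0.0701, and without control replicate 2 it was −0.06. With both control replicate 3 and Treg replicate 3 left out it was −0.89 with an edgeR adjusted p of 0.0549, the lowest of any member in any edgeR fit. DESeq2 without control replicate 3, a fit added after the data were seen, gave −0.74 with an adjusted p of 0.00213.

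Sfrp2, a relative of Sfrp1 with known effects on cardiac fibrosis, was at 17.6, 10.1 and 18.9 CPM in the Treg libraries and at 15.4, 12.4 and 4.21 CPM in the control libraries. Control replicate 3 was again the lowest. The log2 fold change was 0.54 ± 0.46 (SE; edgeR adjusted p = 0.554), and 0.16 without that library; over the other 5 omissions it ran from 0.38 to 0.91. Of the summed Sfrp level per kilobase, Sfrp2 made up 34.5% in Treg and 23.2% in control hearts, and Sfrp1 63.8% and 75.5%.

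Sfrp4 and Sfrp5 were near the limit of detection. Sfrp4 was at 19, 9 and 18 counts in the Treg libraries and at 3, 4 and 10 counts in the control libraries. Treg replicate 2 lay just below control replicate 3 in CPM, at 0.325 against 0.337. Its log2 fold change was 1.38 ± 0.50 (SE; edgeR adjusted p = 0.262), the largest of the members, and it was 1.12 to 2.06 over the 6 omissions. Sfrp5, in mice an adipose-derived antagonist of Wnt5a, was at 12, 9 and 16 counts in the Treg libraries and at 1, 7 and 11 counts in the control libraries, a log2 fold change of 0.92 ± 0.60 (SE; edgeR adjusted p = 0.458). It was 0.45 without control replicate 1 and 1.57 without control replicate 3.

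Dkk3, a divergent Dkk protein, held 95.8% to 99.3% of the summed Dkk level per kilobase in each library. It was at 26.7, 25.7 and 43.7 CPM in the Treg libraries and at 43.7, 29.2 and 12.8 CPM in the control libraries. Treg replicate 3, the library with atrial transcripts, was barely the highest, at 43.74 CPM. Control replicate 1, with Myl7 at 0.105 CPM, was at 43.66 CPM, and control replicate 3 was the lowest. The log2 fold change was 0.17 ± 0.42 (SE; edgeR adjusted p = 0.856), and its sign turned to −0.12 without Treg replicate 3 and to −0.18 without control replicate 3. Dkk2 was at 0.361 to 0.628 CPM in Treg and 0.316 to 0.572 CPM in control hearts.

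**Figure D4:**
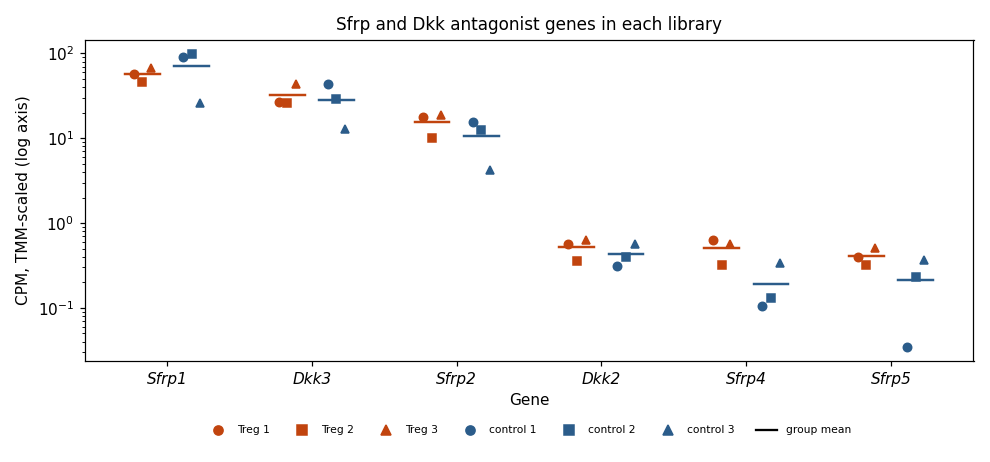
CPM on a log axis for the 4 Sfrp and 2 Dkk genes tested, in the 3 Treg libraries (left of each pair) and the 3 control libraries, ordered by mean level. Symbols mark replicates and bars group means; control replicate 3 (blue triangles) is the lowest library for Sfrp1, Dkk3 and Sfrp2.

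Summed per kilobase, the 8 antagonists came to 29.6, 23.4 and 37.9 in the Treg libraries and to 41.3, 37.1 and 12.2 in the control libraries. The Treg values thus lay between those of control replicate 3 and those of control replicate 1. Fibroblast markers differed between the same libraries. The 10 markers of cardiac fibroblasts summed to 2421 to 2497 CPM in Treg hearts and to 1608 to 1980 CPM in control hearts. The groups were apart through a single gene, Gsn. Without it the other 9 summed to 1434 to 1643 CPM in Treg hearts and to 1258 to 1453 CPM in control hearts, which overlap. The sums stayed apart on leaving out any other marker. At an unadjusted p under 0.05 by edgeR, 3 of the 10 were higher and 1 lower. The 9 markers of activated fibroblasts summed to 1092 to 1658 CPM in Treg hearts and to 1095 to 2657 CPM in control hearts. Of these, 0 were higher and 1 lower at that value. Over all genes tested, 8.23% were higher and 8.31% lower at the same value. Of the cardiac fibroblast markers, the transcription factor gene Tcf21 was at 5.35 CPM in control replicate 3 and at 9.92 to 12.6 CPM in the other libraries, while Pdgfra was at 193 CPM there and at 68.0 to 89.9 CPM elsewhere. The part of fibroblast number or state in the members' values was not tested.

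Control replicate 3 was the highest library for 8 of the 23 members (Wnt2, Wnt9a, Wnt10b, Wnt11, Fzd3, Fzd4, Fzd5 and Fzd7) and the lowest for another 8 (Wnt5a, Wnt5b, Fzd1, Fzd2, Fzd6, Sfrp1, Sfrp2 and Dkk3). These shares, 34.8% each, are close to those over all genes tested, 33.3% and 31.9%. Treg replicate 3 was the highest for 6 members or 26.1%, where it was the highest for 10.7% of all genes. The number of members at an unadjusted p under 0.05 turned on single libraries. It was 8 without control replicate 3 (Wnt5a, Fzd4, Sfrp4 and Sfrp5 higher, Wnt5b, Fzd2, Fzd3 and Sfrp1 lower), where 18.5% of all genes lay under that value. It was 0 without Treg replicate 1 (7.95% of all genes), 1 without Treg replicate 2 (Sfrp4; 9.56% of all genes), and 2 without Treg replicate 3 (Wnt5a and Fzd3; 10.4% of all genes). It was 3 without control replicate 1 (Wnt5a, Fzd3 and Fzd5; 22.5% of all genes) and 4 without control replicate 2 (Wnt2, Wnt5a, Wnt9a and Fzd3; 14.8% of all genes). No member reached an adjusted p of 0.05 in any of these 6 fits or by DESeq2, which gave an adjusted p for 20 of the 23 members and called 3.9% of all genes; without control replicate 3 edgeR called 1.3% of all genes. DESeq2 without control replicate 3, added after the data were seen, called 2 members, Sfrp1 and Wnt5b, both lower in Treg hearts, of the 23, and 5.96% of all genes.

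**Figure D5:**
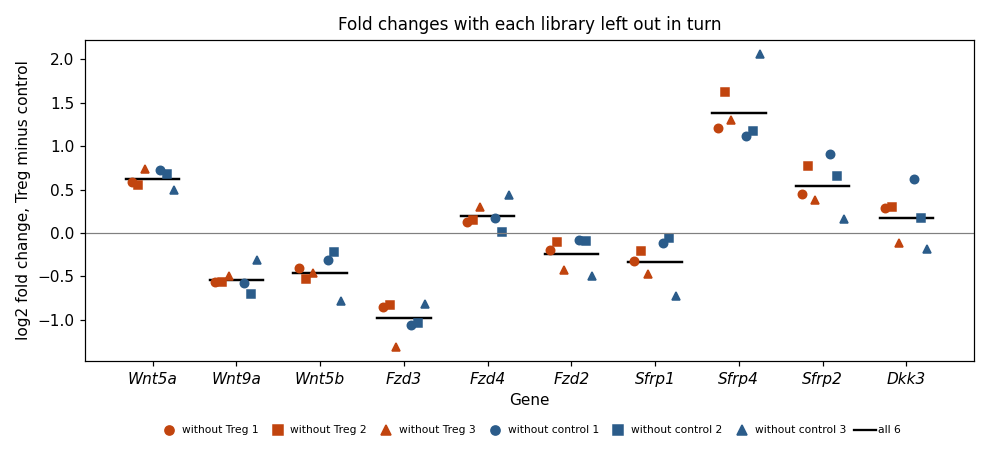
Log2 fold change (Treg minus control, edgeR) of 10 members with all 6 libraries (black bars) and with each library left out in turn (orange, a Treg library left out; blue, a control library left out). Wnt5a stays between 0.50 and 0.74 and Fzd3 between −1.31 and −0.82, whereas Dkk3 takes both signs and Sfrp1 runs from −0.73 to −0.06.

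The other genes of the pathway were read from 7 lists holding 89 different genes, of which 75 were tested. By edgeR 0 had an adjusted p under 0.05. At an unadjusted p under 0.05 there were 13 or 17.3% (7 higher, 6 lower in Treg hearts), again near the 16.5% of all genes. The counts given below for each list are to be read beside that same 16.5%. The median log2 fold change of the 75 genes was −0.09. It was above 0 for 27 genes or 36% and below 0 for 48, where 48% of all genes tested lay above 0.

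For processing and secretion, 1 of 6 genes was at an unadjusted p under 0.05. Wls, the carrier that brings Wnt proteins to the cell surface, stood at 67.4, 60.2 and 77.0 CPM in the Treg libraries and at 80.7, 99.7 and 87.0 CPM in the control libraries, a log2 fold change of −0.39 ± 0.14 (SE; edgeR adjusted p = 0.267). All Treg libraries lay below all controls. The glypican genes Gpc3 and Gpc4 had 0.49 and −0.28, and Gpc4 had −0.18 without control replicate 1.

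Among co-receptors and alternative receptors, 2 of 8 were at an unadjusted p under 0.05, Reck and Ptk7. Reck, a membrane-anchored partner of the Wnt7 receptor complex in brain vessels, had a log2 fold change of 0.46. The polarity pseudokinase gene Ptk7 had −0.53. It was at 10.3, 12.5 and 15.5 CPM in the control libraries, highest in control replicate 3, and at 6.85 to 9.89 CPM in Treg hearts. Adgra2, which acts with Reck, had −0.49, and −0.26 without control replicate 3. Lrp6 averaged 86.1 ± 6.74 CPM in Treg hearts and 85.6 ± 7.95 CPM in control hearts (SD, n = 3 each), a log2 fold change of 0.01. The R-spondin receptor gene Lgr6 was at 47.2, 52.2 and 50.1 CPM in the Treg libraries and at 35.2, 27.8 and 14.6 CPM in the control libraries. Its groups were apart, with a log2 fold change of 0.94 ± 0.29 (SE; edgeR adjusted p = 0.219). Lgr4 and Znrf3, the ligase that removes Frizzled from the membrane, had −0.39 and −0.38, which were −0.11 and −0.21 without control replicate 3. The other 6 genes of the R-spondin list were too low to test.

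Of the other inhibitors, 7 of 13 were tested. Wif1, a secreted protein that binds Wnts, was at 8.94, 11.6 and 13.6 CPM in the Treg libraries and at 9.93, 3.84 and 3.23 CPM in the control libraries, with a log2 fold change of 1.01 ± 0.42 (SE; edgeR adjusted p = 0.295). Control replicate 1 lay within the Treg values, and without it the log2 fold change was 1.69. Trabd2b, a membrane protease that inactivates Wnts, had −0.80 (edgeR adjusted p = 0.238). Its groups overlapped, at 42.9, 64.2 and 41.9 CPM in the Treg libraries and at 90.3, 59.0 and 110 CPM in the control libraries. Frzb averaged 44.8 ± 4.88 CPM in Treg hearts and 50.5 ± 15.6 CPM in control hearts (SD, n = 3 each), a log2 fold change of −0.17, and was lowest in control replicate 3, as Sfrp1 and Sfrp2 were; without that library it was −0.40. Apcdd1, a membrane inhibitor, had −0.23, and −0.06 without Treg replicate 2.

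In the cytoplasmic list 3 of 25 genes were at an unadjusted p under 0.05, the planar polarity cadherin genes Celsr1 (log2 fold change 0.46) and Celsr2 (0.81; edgeR adjusted p = 0.171) and the kinase gene Csnk1a1 (−0.43), whose product primes beta-catenin for destruction. Csnk1a1 had −0.25 without control replicate 3. Celsr2 passed by DESeq2 (adjusted p = 0.0301, and 0.0294 without control replicate 3). Ctnnb1, which encodes beta-catenin, averaged 377 ± 13.8 CPM in Treg hearts and 383 ± 43.1 CPM in control hearts (SD, n = 3 each), a log2 fold change of −0.02. Of the 12 nuclear factors tested 0 were at an unadjusted p under 0.05; Pygo2, Tle2 and Tcf7l1 came nearest, with 0.32, 0.82 and −0.30. Without control replicate 3 Tle2 and Tcf7l1 had 0.47 and −0.19.

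Of the feedback and target genes, 4 of 18 were at an unadjusted p under 0.05, Tnfrsf19 and Jun higher and Cd44 and Plaur lower. In the whole list 14 of 18 had a log2 fold change below 0, with a median of −0.24. Those above 0 made up 22.2%, where 48% of all genes tested lay above 0. Of the genes below 0, control replicate 3 was the highest library for Nkd1, Notum, Znrf3, Myc, Cd44, Fosl1 and Plaur. It was not the highest for Axin2, Nkd2, Ccnd1, Ccn4, Ccn5, Apcdd1 or Met. Over all genes tested it was the highest for 33.3%. The signs of the whole list were not counted without that library. Axin2, the most widely used readout of beta-catenin signalling, was at 2.90, 3.03 and 2.54 CPM in the Treg libraries and at 4.25, 2.61 and 2.09 CPM in the control libraries, with a log2 fold change of −0.08 ± 0.29 (SE; edgeR adjusted p = 0.91) and overlapping groups. Tnfrsf19 had 0.92 and Jun 1.15 ± 0.24 (SE; edgeR adjusted p = 0.136, DESeq2 adjusted p = 0.0015, and 0.00204 without control replicate 3), with all Treg libraries above all controls for both. Cd44 had −1.84 (edgeR adjusted p = 0.234, DESeq2 adjusted p = 0.0172), and control replicate 3 held 118 CPM of it, against 13.7 to 38.0 CPM in the other 5 libraries. Without control replicate 3 Cd44 had −0.83 by edgeR (adjusted p = 0.234) and −0.84 by DESeq2 (adjusted p = 0.0649). DESeq2 thus did not call Cd44 in that fit, which also had fewer control libraries. Plaur had −2.17 (edgeR adjusted p = 0.238), the lowest of the pathway genes tested. It stood at 23.9 CPM in control replicate 3 and at 2.01 to 8.77 CPM elsewhere. Jun and Cd44 are also targets of many other pathways.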

How the data were processed

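Total RNA from frozen left ventricular tissue was made into stranded mRNA libraries and sequenced as paired 101 bp reads, per the labels' protocols. The deposited table holds estimated counts per Ensembl gene, not normalized, and 46.5% to 50% of the non-zero values per library are not whole. Per the submitters' processing notes, the build was GRCm38 and the tools were HISAT2 2.1.0, featureCounts 2.0.6, Trimmomatic 0.39 and Cuffdiff 2.2.1; the sources used here do not give their roles, the counting options or the use of strand. A further 6 columns match no sample listed here and were not used. Symbols, biotypes, coordinates and exon lengths came from GENCODE M21, which matched 47310 IDs (419 did not match).

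Estimated counts were rounded to the nearest whole number, which moved library totals by at most 0.00866%. Genes were kept by filterByExpr with its minimum count of 10 (17365 genes), scaled by TMM and tested two-sided with edgeR 4.0.16 in R 4.3.3 (robust quasi-likelihood F test, older dispersion method, no covariates, Benjamini-Hochberg at 0.05). The SE of a log2 fold change is its size divided by the square root of F. CPM use TMM-scaled library sizes. DESeq2 1.42.0, limma 3.58.1 (voom) and the other alternatives are in the closing section. The members and gene lists were chosen with earlier results of these data known. Every member was named, with, from each of 7 pathway lists, the 3 genes of smallest p, plus Axin2, Lrp6, Ctnnb1 and Frzb. Plaur was added afterwards for its fold change. Other annotated genes overlap 10 members, with a single gene, Fbxl14, above 67 counts. Promoter windows are RefSeq's on GRCm38.p6.

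The summed markers not given beside a result were, in Treg and in control hearts, 863 to 1068 and 628 to 902 CPM for 8 mural cell markers, 12.4 to 14.8 and 14.6 to 22.2 for 8 epicardial, 35230 to 49562 and 30216 to 43015 for 7 ventricular muscle, 421 to 613 and 418 to 1029 for 9 macrophage, 8.73 to 19.2 and 7.26 to 41.4 for 8 neutrophil, 6.67 to 8.23 and 4.14 to 18.4 for 8 T cell, 80.3 to 90.7 and 88.7 to 110 for 7 nerve and 1073 to 1918 and 292 to 2849 for 5 erythroid markers. The highest T cell sum rests on Cd3e, at 15.7 CPM in control replicate 3 and at 0.396 to 2.88 CPM elsewhere. In that library Cd3d was at 3 counts and Cd3g and Trac were at 0. Of the 3 T cell markers tested by edgeR, Cd4 and Cd28 were higher in Treg hearts and Cd3e lower, at an unadjusted p under 0.05. Over all genes tested, 8.23% were higher and 8.31% lower at that value.

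On counts simulated from the 17365 genes of this comparison, edgeR recovered 41 of 100 genes changed 2-fold and 86 of 100 changed 4-fold. There were 0 in the wrong direction and 11 false calls, and no simulated library stood apart. The changed genes were drawn only from those with a mean of at least 10 counts. The rates hold for that choice and number of changed genes and were not worked out for the members.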

Additional observations from a re-analysis of the deposited data

How the results depend on the processing

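Over all genes, edgeR called 0 at an adjusted p under 0.05 (2873 at an unadjusted p under 0.05). The count was also 0 with upper-quartile or RLE scaling, limma-voom, a mean of at least 1 CPM, the newer edgeR dispersion method, omission of mitochondrially encoded genes and, added after seeing the data, protein-coding genes only. DESeq2 called 650, no filter 38, and the omission of single libraries 0 to 230. Leaving out Treg replicate 3 together with control replicate 3, also added afterwards, gave 119. Members past the adjusted threshold numbered 0 in each of these fits. DESeq2 without control replicate 3, added afterwards too, called 1052 genes and 2 members, Sfrp1 and Wnt5b. At an unadjusted p under 0.05, that fit had 4 members lower (Fzd2, Sfrp1, Wnt5b and Wnt9b). Fzd4, Sfrp4 and Wnt5a were higher at that value, where 16.1% of all genes lay under it. In the main fit, 2 members were higher and 2 lower at an unadjusted p under 0.05 (16.5% of all genes). With DESeq2 it was 1 higher (16.7% of all genes), and with limma-voom 1 lower (16.3%). With a mean of at least 1 CPM, where 18 members were tested, it was 1 higher (16.8%). Without single libraries it was 0 to 4 higher and 0 to 4 lower (7.95% to 22.5% of all genes). Without both replicates 3, where 21 members were tested, it was 2 higher and 5 lower (15.9% of all genes). The cause of these shifts was not tested.

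Of 407 alternative values for the 23 members tested, 391 kept their sign and their side of the threshold, 2 (Sfrp1 and Wnt5b, above) newly passed it and 14 had the opposite sign. Where a sign turned, libraries had been left out, except for Ctnnb1 at 0.00087 with no filter. Over these omissions, the joint one included, the log2 fold change ran from −0.111 to 0.119 for Fzd6, from −0.275 to 0.0817 for Fzd7, from −0.0497 to 0.346 for Fzd9, from −0.0157 to 0.908 for Sfrp2, from −0.483 to 0.618 for Dkk3, from −1.44 to 0.145 for Wnt10b, from −0.056 to 0.0782 for Lrp6, from −0.504 to 0.0248 for Frzb, from −0.0877 to 0.0817 for Ctnnb1 and from −0.28 to 0.272 for Axin2. DESeq2 without control replicate 3 gave 0.0707 for Fzd7 and −0.195 for Dkk3. The other members kept their sign under every alternative run.

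Deviations from the group means correlated at −0.116, −0.225 and 0.0459 between Treg and control libraries of the same replicate number. Between libraries of different numbers they correlated at −0.242 to 0.299. With 3 libraries per group, these values cannot show whether the replicate numbers pair the libraries. With the replicate block edgeR called 0 genes, and 2472 or 14.2% were at an unadjusted p under 0.05. At that value 2 members were higher and 1 lower. Depth limits what can be said of Sfrp4, Sfrp5, Wnt2, Wnt10b and Dkk2, at 32 counts or fewer in every library, and of the 14 members not tested.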

Other observations

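Of the 14 members too low to test, 9 had counts in some libraries. Wnt8b was at 2, 0 and 1 counts in the Treg libraries and at 0, 0 and 1 in the control libraries, and Wnt16 was at 0, 0 and 2 and at 0, 1 and 4. Wnt3 was above 0 in Treg replicate 2 only, at 2 counts, Wnt7b in control replicate 3 only, at 1 count, and Fzd10 in control replicates 2 and 3, at 1 count each. These counts are too few to set the groups against each other.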
